A study of Drosophila melanogaster with 3 samples.

Results

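The mitosis genes are a list of 35 Drosophila melanogaster genes that encode the machinery of chromosome segregation and cell division, and they were taken by symbol from the 13988 features of the deposited count matrices. All 35 were found. They cover the mitotic cyclins with Cdk1, the mitotic kinases, the chromosomal passenger complex, the spindle checkpoint, the destruction pathway that opens anaphase, the kinetochore, the spindle, the cytokinesis ring and the condensed chromosome. Of the 35 genes, 12 lie on chromosome arm 2L, 8 on 2R, 5 on 3L, 7 on 3R and 3 on X (feo, Klp10A and Ndc80).

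Entry into mitosis is driven by Cdk1 bound to a mitotic cyclin, and exit follows when the anaphase-promoting complex (APC/C) has marked securin and the cyclins for destruction. Larval neuroblasts act as the fly's neural stem cells: a type I neuroblast divides asymmetrically, renews itself and buds off a smaller ganglion mother cell, which itself divides to give a pair of neurons. Many mitotic transcripts are made in advance of division, so cells of a cycling lineage are known to carry them outside mitosis as well.

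The study sorted type I neuroblasts and their progeny by fluorescence from brains of larvae aged 72 to 96 h after egg laying, grown at 25 °C, and made 1 droplet single-cell 3′ RNA library per genotype, all labelled batch 1. Every genotype carried a GFP-tagged myosin light chain, Sqh::GFP, together with the neuroblast driver worGal4 and UAS-mCherry::Jupiter on chromosome 3. The control had nothing further, in the mud library X also bore the mud4 allele, and the nanobody library added UAS-ALDInscuteable RockKinase domain-VhhGFP4-HA on chromosome 3, a transgene whose name joins an Inscuteable part, a kinase domain and a GFP-binding nanobody. The title of the series names sibling cell size, cell cycle progression and cell fate as its subject. The labels place Sqh::GFP on X in the control and mud genotypes and give no chromosome for it in the nanobody genotype. As background, worGal4 is active in neuroblasts, type II ones included, so the transgenes reach the cells in which that driver is or was on.

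The libraries held 14852 (control), 15194 (mud) and 14415 (nanobody) called cells, defined as barcodes with at least 1000 unique molecular identifiers (UMIs, 1 per captured transcript), at least 500 genes and at most 20% mitochondrial UMIs. Median depth was 6528.5, 6176 and 6863 UMIs per cell, and any 2 libraries shared 59 to 78 cell barcodes. Because each genotype is 1 library, no comparison below has a replicate check and no p-value is given: all intervals are exact 95% intervals and cover counting error only. The transcript of mud itself stood at 198, 266 and 246 CPM (UMIs of a gene scaled to the same total in every library) in dpn-positive cells of control, mud and nanobody, so it cannot check the mud label. No sorting tag was needed for a cell to be called. The mCherry transcript was listed at 338, 116 and 191 CPM in ase-gate cells of the 3 libraries in the same order.

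Cells were gated by 1 transcript each. A cell with at least 1 UMI of dpn (deadpan, a neuroblast transcription factor) entered the dpn gate, which held 457, 862 and 854 cells in control, mud and nanobody. A cell with at least 2 UMIs of ase (asense, on in type I neuroblasts and ganglion mother cells) and none of dpn entered the ase gate, with 3938, 3748 and 3362 cells. At least 3 UMIs of Hey (a Notch target of newborn neurons) gave 1607, 1389 and 1397 cells, at least 1 UMI of nSyb (neuronal synaptobrevin) gave 5004, 5724 and 5218 cells, and at least 2 UMIs of repo (the glial transcription factor) gave 89, 107 and 59 cells. The neuroblast markers mira and wor stood at 698 and 435 CPM in the dpn gate of the control and at 101 and 290 CPM in its ase gate. Of the same list (dpn, wor, mira, klu, ase, insc), ase and insc went the other way. They stood at 181 and 63.3 CPM in the dpn gate and at 501 and 74.1 CPM in the ase gate. All 6 summed to 2259 and 1018 CPM, and the gates themselves set the levels of dpn and ase. The hemocyte markers summed to at most 1.54 CPM in the dpn and ase gates of every library, and the fat body markers to at most 0.146 CPM. In the Hey gate the hemocyte markers summed to 0.0932 CPM in control, 39.4 in mud and 0.491 in nanobody, and their part in the Hey-gate values of mud was not tested. Markers of type II lineages and intermediate progenitors (pnt, btd, erm, opa) summed to 511, 414 and 311 CPM in the dpn gate of control, mud and nanobody, and optic lobe markers to 408, 346 and 438 CPM. Gates overlap: 487 of the control ase-gate cells also passed the Hey gate.

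The mitosis genes together took a share of the transcriptome that was highest in dpn-gate cells and lowest in nSyb-gate cells. In the dpn gate they made up 0.717% of all UMIs in control (0.711 to 0.724), 0.642% in mud (0.638 to 0.647) and 0.713% in nanobody (0.708 to 0.719). The ase gate stood at 0.531% in control, 0.501% in mud and 0.512% in nanobody, and the Hey gate at 0.304%, 0.306% and 0.301%. The glial gate stood at 0.244%, 0.228% and 0.230%, and the nSyb gate at 0.154%, 0.174% and 0.154%. The order dpn, ase, Hey, repo, nSyb was the same in each library, and no value of a gate in 1 library reached that of a neighbouring gate in another.

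**Figure D1:**
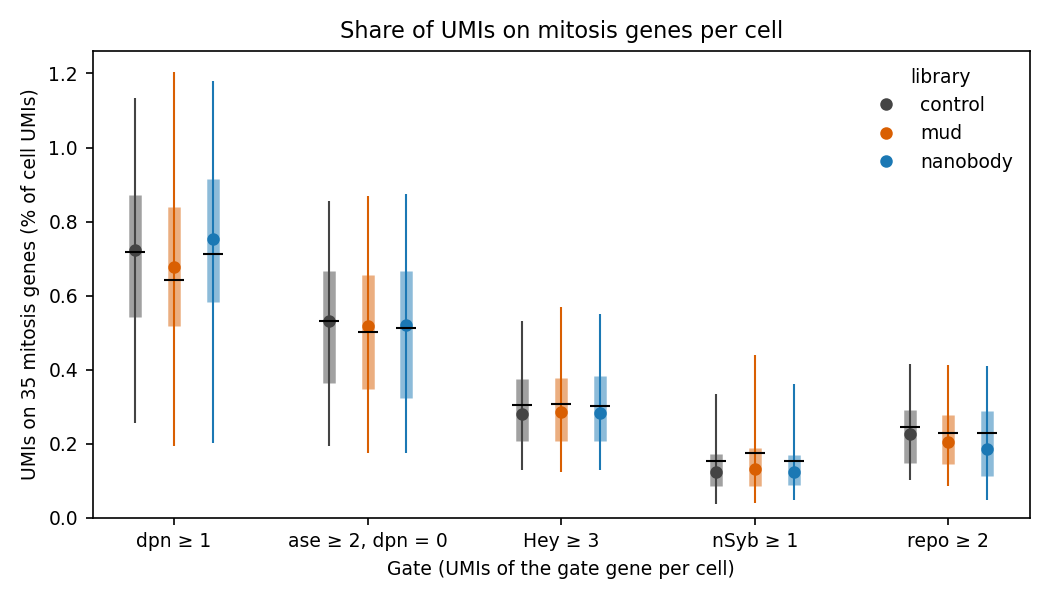
Share of each cell's UMIs on the 35 mitosis genes (percent, y axis) in each gate (x axis) for the control, mud and nanobody libraries. Points are medians over cells, thick bars the middle 50% of cells, thin lines the 5th to 95th percentile and black ticks the summed share of the gate, which falls from 0.717% in the dpn gate of the control to 0.154% in its nSyb gate.

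Per cell the picture was one of broad overlap between neighbouring gates. The median dpn-gate cell of the control held 82 UMIs of the mitosis genes, at a median depth of 12024 UMIs, and the median nSyb-gate cell 10, at a median depth of 7946.5. The middle 50% of dpn-gate cells spanned shares of 0.542% to 0.871% in control, 0.518% to 0.840% in mud and 0.583% to 0.916% in nanobody. With each cell thinned to 1000 UMIs, so that depth is equal and no called cell is left out, 75.1%, 73.2% and 77.8% of dpn-gate cells and 55.4%, 53.3% and 53.2% of ase-gate cells held 5 or more mitosis UMIs in control, mud and nanobody. That number was reached by 20.1%, 22.0% and 21.4% of Hey-gate cells and by 4.20%, 6.04% and 4.77% of nSyb-gate cells.

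Free RNA carries these transcripts too. Barcodes with 20 to 200 UMIs, taken as a measure of free RNA and called low barcodes here, gave the mitosis genes a share of 0.338% in control, 0.368% in mud and 0.354% in nanobody. That is above the share in Hey-gate, repo-gate and nSyb-gate cells and below that in the dpn and ase gates. How much of the low levels in neurons and glia comes from free RNA was not tested.

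Among the cyclins and Cdk1, which took 19.1%, 19.2% and 18.4% of mitosis UMIs in the ase gate of control, mud and nanobody, the most abundant transcript there was Cdk1 itself, the kinase of mitotic entry. Cdk1 stood at 340 CPM in control, 263 in mud and 278 in nanobody, and it was lower in both manipulated libraries. CycA, the cyclin destroyed earliest in mitosis, stood at 246, 240 and 231 CPM, and CycB at 200, 215 and 216 CPM, both within a narrow band. CycB3, the cyclin of late mitosis, stood at 127, 147 and 133 CPM in the ase gate and at 270, 302 and 281 CPM in the dpn gate. Cks30A, a small subunit of cyclin-Cdk complexes, stood at 103, 98.9 and 83.3 CPM in the ase gate.

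The mitotic kinases were led by polo, the Polo-like kinase, at 143, 157 and 149 CPM in the ase gate of control, mud and nanobody. The centrosomal kinase aurA was lower, at 41.8, 50.4 and 49.8 CPM. All CPM values in this account count 3′ UMIs and are not scaled by transcript length, so levels set between genes compare captured molecules. In the chromosomal passenger complex, which corrects faulty kinetochore attachments, the kinase aurB led with 212, 186 and 242 CPM in the ase gate, followed by the Borealin gene borr with 189, 207 and 201 CPM. The scaffold Incenp stood at 157, 121 and 119 CPM and the Survivin homologue Det at 145, 122 and 143 CPM.

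Levels within the spindle checkpoint, which holds anaphase until all kinetochores are attached, ranged widely. Bub3 led with 212, 219 and 236 CPM in the ase gate, BubR1 stood at 48.3, 49.5 and 59.5 CPM, and Bub1 at 24.1, 17.7 and 21.6 CPM was the least abundant of all 35 mitosis genes there. Bub1 in low barcodes, at 20.2, 27.8 and 25.4 CPM, was at the level of the gate. In the APC/C and separase pathway the ubiquitin-conjugating enzyme vih led with 219, 182 and 219 CPM in the ase gate, above securin (pim) at 84.1, 80.8 and 79.5 CPM. The APC/C activator fzy stood at 56.8, 61.9 and 68.8 CPM and thr, a partner of separase, at 29.1, 22.9 and 24.4 CPM.

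The kinetochore genes were led by Spc25, a subunit of the Ndc80 complex that grips microtubule ends, at 119, 124 and 128 CPM in the ase gate of control, mud and nanobody. The kinetochore kinesin cmet stood at 107, 84.2 and 97.1 CPM, and the other Ndc80-complex subunits, Nuf2 and Ndc80, ranged from 50.9 to 70.1 CPM over the libraries. Of the spindle motors and microtubule proteins, the minus-end-directed kinesin ncd led with 198, 155 and 177 CPM. Klp10A, a microtubule-depolymerising kinesin, stood at 130, 172 and 138 CPM and the centrosomal protein gene tacc at 111, 129 and 129 CPM. Klp61F, the kinesin that slides spindle microtubules apart, stood at 66.2, 61.7 and 75.8 CPM, and mars, a spindle-associated protein, at 74.3, 67.9 and 67.9 CPM.

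Cytokinesis genes were led by feo, which encodes a cross-linker of central spindle microtubules, at 285 CPM in control, 403 in mud and 274 in nanobody in the ase gate. The centralspindlin subunits tum and pav stood at 191, 187 and 178 CPM and at 145, 106 and 113 CPM, and the anillin gene scra at 114, 103 and 112 CPM. The most abundant mitosis gene in the ase gate was Top2, the topoisomerase that untangles sister chromatids, at 543, 457 and 501 CPM. The condensin subunits SMC2, glu and barr stood at 213, 161 and 198 CPM, at 169, 130 and 138 CPM and at 140, 118 and 130 CPM. Chromosome structure genes as a group took 20.1%, 17.3% and 18.9% of mitosis UMIs in the ase gate.

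**Figure D2:**
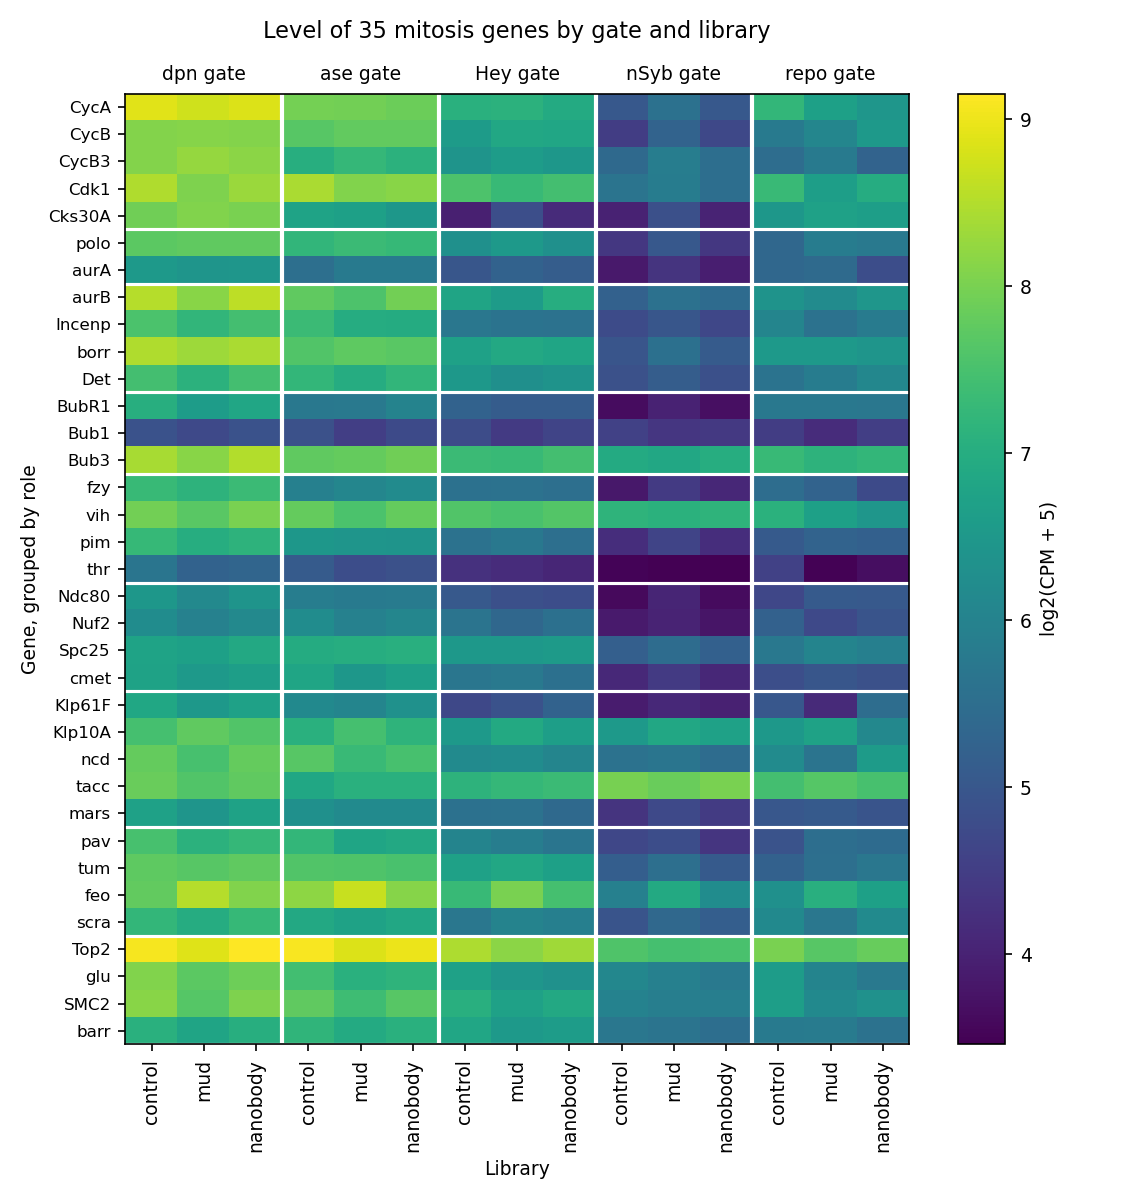
Colour gives the level of each mitosis gene as log2 of (CPM + 5), with genes in rows grouped by role and the 3 libraries in columns within the dpn, ase, Hey, nSyb and repo gates. Top2 is the brightest row in the ase gate, and tacc is the row that is brighter in the nSyb gate than in the ase gate in all 3 libraries.

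From the dpn gate to the ase gate the mitosis genes stood lower, by an amount that differed from gene to gene. The summed share in the ase gate was 0.740 times that in the dpn gate in control (0.733 to 0.748), 0.780 in mud (0.773 to 0.787) and 0.718 in nanobody (0.712 to 0.725). Genes with at least 50 CPM in either gate were compared on the log2 of (CPM + 5), and a gene was counted as past 1.5-fold from a log2 difference of 0.585. In control 13 of 33 mitosis genes that passed the level filter were lower in the ase gate by at least that much, in mud 7 of 33 and in nanobody 11 of 33, where 15.3%, 14.5% and 12.4% of all genes tested were. None was higher by 1.5-fold in any library, beside 8.58%, 6.69% and 5.32% of all genes tested. The median log2 difference over the mitosis genes that passed was -0.41, -0.33 and -0.45, beside -0.01, -0.05 and -0.02 over all genes tested.

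The genes lowest in the ase gate relative to the dpn gate, by the mean log2 difference over the 3 libraries, were Cks30A, fzy, CycB3, BubR1 and CycA. Cks30A stood at 239, 264 and 252 CPM in the dpn gate and at 103, 98.9 and 83.3 CPM in the ase gate, a log2 difference of -1.36 ± 0.18 (SD over 3 libraries of different genotype). For fzy the dpn gate held 153, 136 and 157 CPM, a difference of -1.19 ± 0.15, and for CycB3 it was -1.04 ± 0.03. BubR1 differed by -0.98 ± 0.27 and CycA by -0.90 ± 0.08, and for all 5 genes the values of the 2 gates did not overlap. These 5 were picked as the lowest ratios in the same data, and such separation was not counted over all genes. Over the alternative cell choices the ratio of Cks30A ran from 0.228 to 0.515 in control, where the value was 0.431, from 0.248 to 0.423 in mud (0.374) and from 0.199 to 0.405 in nanobody (0.330). The lowest came from thinned cells in control and from ase-gate cells without a mira UMI in mud and nanobody. At the other end Spc25 was higher in the ase gate, at 103, 99.4 and 115 CPM in the dpn gate against 119, 124 and 128 CPM, a difference of 0.22 ± 0.08. The remaining genes of that end, feo, barr, cmet and Nuf2, had mean differences between -0.02 and 0.19, and feo and barr were above 0 in every library.

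Replication genes set a contrast with the mitosis genes. Of a list of 16 DNA replication genes, all 14, 13 and 13 that passed the level filter in control, mud and nanobody were at least 1.5-fold lower in the ase gate than in the dpn gate. Their median log2 differences were -2.22, -1.90 and -2.03. Between the ase gates of mud and control 5 of the 16 passed the filter, and likewise for nanobody and control. Most of those counted therefore passed through the dpn gate, where they are high. Without the filter, all 16 summed to 4288, 3717 and 3972 CPM in the dpn gate and to 729, 823 and 795 CPM in the ase gate. The sliding clamp PCNA stood at 776 CPM in the dpn gate of the control and at 175 in its ase gate, and CycE, the cyclin of S phase entry, at 1034 and 50.3 CPM. The ase gate was defined as lacking dpn UMIs, and dpn is on neither list. Genes that vary with dpn can still be selected by that gate. Among dpn-gate cells of control ranked by mitosis share, dpn stood at 414 CPM in the top and 178 CPM in the bottom quartile. The part of this selection in the differences was not tested. Among the checkpoint and kinetochore genes outside the 35, 3 of 9, 0 of 7 and 2 of 8 tested were 1.5-fold lower in the ase gate of control, mud and nanobody, and among the other spindle genes 8 of 17, 4 of 14 and 5 of 15. The shares of all genes tested that were lower were the 15.3%, 14.5% and 12.4% given above.

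From the ase gate to the Hey gate of newborn neurons, 23, 23 and 25 mitosis genes of the 31, 32 and 32 tested were at least 1.5-fold lower in control, mud and nanobody, where 9.45%, 6.84% and 7.25% of all genes tested were. None was 1.5-fold higher, beside 13.3%, 11.1% and 9.8% of all genes. Between the Hey gates of mud and control 22 of the 35 passed the filter, and likewise for nanobody and control. Some of those counted therefore passed only through the ase gate, where they are high. Without the filter, the median log2 difference over all 35 was -0.81, -0.68 and -0.82. Cks30A again had the lowest ratio, with 10.5, 23.4 and 13.0 CPM left in the Hey gate and a mean log2 difference of -2.32 ± 0.46. Its ratio of Hey gate to ase gate was 0.102 in control, 0.237 in mud and 0.156 in nanobody. Among cells of exactly 1 gate it was 0.0277, 0.0832 and 0.0767, and among cells with an mCherry UMI 0.276, 0.532 and 0.379, the lowest and highest of the alternatives. Incenp (-1.44 ± 0.16), ncd (-1.34 ± 0.22), Klp61F (-1.23 ± 0.20) and pav (-1.12 ± 0.17) followed. For Cks30A and each of these genes, Hey-gate values stayed below those of every library's ase gate. They were picked as the lowest ratios in these same data, and such separation was not counted over all genes. The highest ratios belonged to tacc (0.25 ± 0.06), Bub1 (-0.09 ± 0.01), vih (-0.14 ± 0.10), barr (-0.41 ± 0.05) and Bub3 (-0.46 ± 0.05), and tacc alone was above 0 in all 3 libraries.

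In the nSyb gate the separation was widest. The summed share was 0.289 times that of the ase gate in control, 0.348 in mud and 0.301 in nanobody. Among cells with an mCherry UMI the ratios were 0.613, 0.739 and 0.651, and among cells of exactly 1 gate 0.218, 0.234 and 0.226. At least 1.5-fold lower were 29 of 31, 30 of 32 and 30 of 32 mitosis genes tested, beside 25.1%, 19.4% and 23.8% of all genes tested, and 1 in each library (tacc) was higher, beside 29%, 28.2% and 26.8%. Between the nSyb gates of mud and control 10 of the 35 passed the filter, and of nanobody and control 8. Most of those counted therefore passed only through the ase gate, where they are high. Without the filter, the median log2 difference over all 35 was -2.12, -1.76 and -2.10. CycB had the lowest ratio, at 17.7, 33.9 and 20.9 CPM in the nSyb gate and a mean log2 difference of -2.92 ± 0.37, followed by CycA (-2.72 ± 0.31), polo (-2.68 ± 0.31), Cdk1 (-2.54 ± 0.29) and borr (-2.47 ± 0.27). For each of these 5 genes the mud library gave the highest nSyb-gate value of the 3. That library also had the largest overlap of the ase and dpn gates with the nSyb gate. Of its ase-gate cells 9.28% (348) carried nSyb UMIs, against 5.99% (236) in control and 7.38% (248) in nanobody. For dpn-gate cells the shares were 16.4% (141), against 10.7% (49) and 10.1% (86). Taken over nSyb-gate cells, 6.08% in mud also passed the ase gate, against 4.72% in control and 4.75% in nanobody. The dpn gate was also passed by 2.46%, against 0.979% and 1.65%. In cells of the nSyb gate alone all 5 genes were likewise highest in mud. The part of gate overlap in these levels was not tested.

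The gene tacc went the other way. It stood at 249, 226 and 253 CPM in the nSyb gate of control, mud and nanobody and at 111, 129 and 129 CPM in the ase gate, a mean log2 difference of 0.95 ± 0.17, and the 2 gates did not overlap. Such separation was not counted over all genes. The ase gate also stood below the dpn gate for tacc, by log2 differences of -0.99, -0.54 and -0.70. It was thus the low side of both comparisons, and the nSyb and dpn gates were not compared directly. At 1000 UMIs per cell, 22.5%, 19.9% and 22.2% of nSyb-gate cells held a tacc UMI against 9.93%, 12.1% and 12.9% of ase-gate cells. Without thinning the shares were 77.8%, 77.0% and 81.6% against 49.8%, 54.4% and 56.8%, at median depths of 7946.5, 7678 and 8760.5 UMIs in the nSyb gate and 8436.5, 7343 and 8585 in the ase gate. For comparison, CycB had a UMI in 1.22%, 2.32% and 1.74% of thinned nSyb-gate cells and in 17.9%, 17.8% and 18.6% of thinned ase-gate cells, and without thinning in 6.97%, 10.5% and 8.59% against 65.4%, 65.6% and 68.1%. Exons of tacc overlap an annotated antisense RNA on the opposite strand, and the strand setting of the counting is not given in the sources used here. The next ratios were those of Bub1 (-0.26 ± 0.10), Klp10A (-0.53 ± 0.08), vih (-0.58 ± 0.11) and Bub3 (-0.89 ± 0.07).

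Cells that passed the nSyb gate and no other held most mitosis genes below the level of low barcodes. In these 4616, 5108 and 4782 cells CycB stood at 5.21, 8.06 and 6.47 CPM and CycA at 9.27, 12.3 and 9.17 CPM, against 102 to 134 and 140 to 168 CPM in low barcodes. Of the 35 genes, tacc was above the low-barcode level in 2 libraries and vih in 1, and the other 33 were below it in all 3. The same count was not made over all genes, so it cannot be read as particular to the mitosis genes. The value of tacc was 256, 236 and 261 CPM in these cells and 179, 273 and 221 CPM in low barcodes. Of the chromosome genes, Top2 remained at 164, 141 and 157 CPM in cells of the nSyb gate alone.

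**Figure D3:**
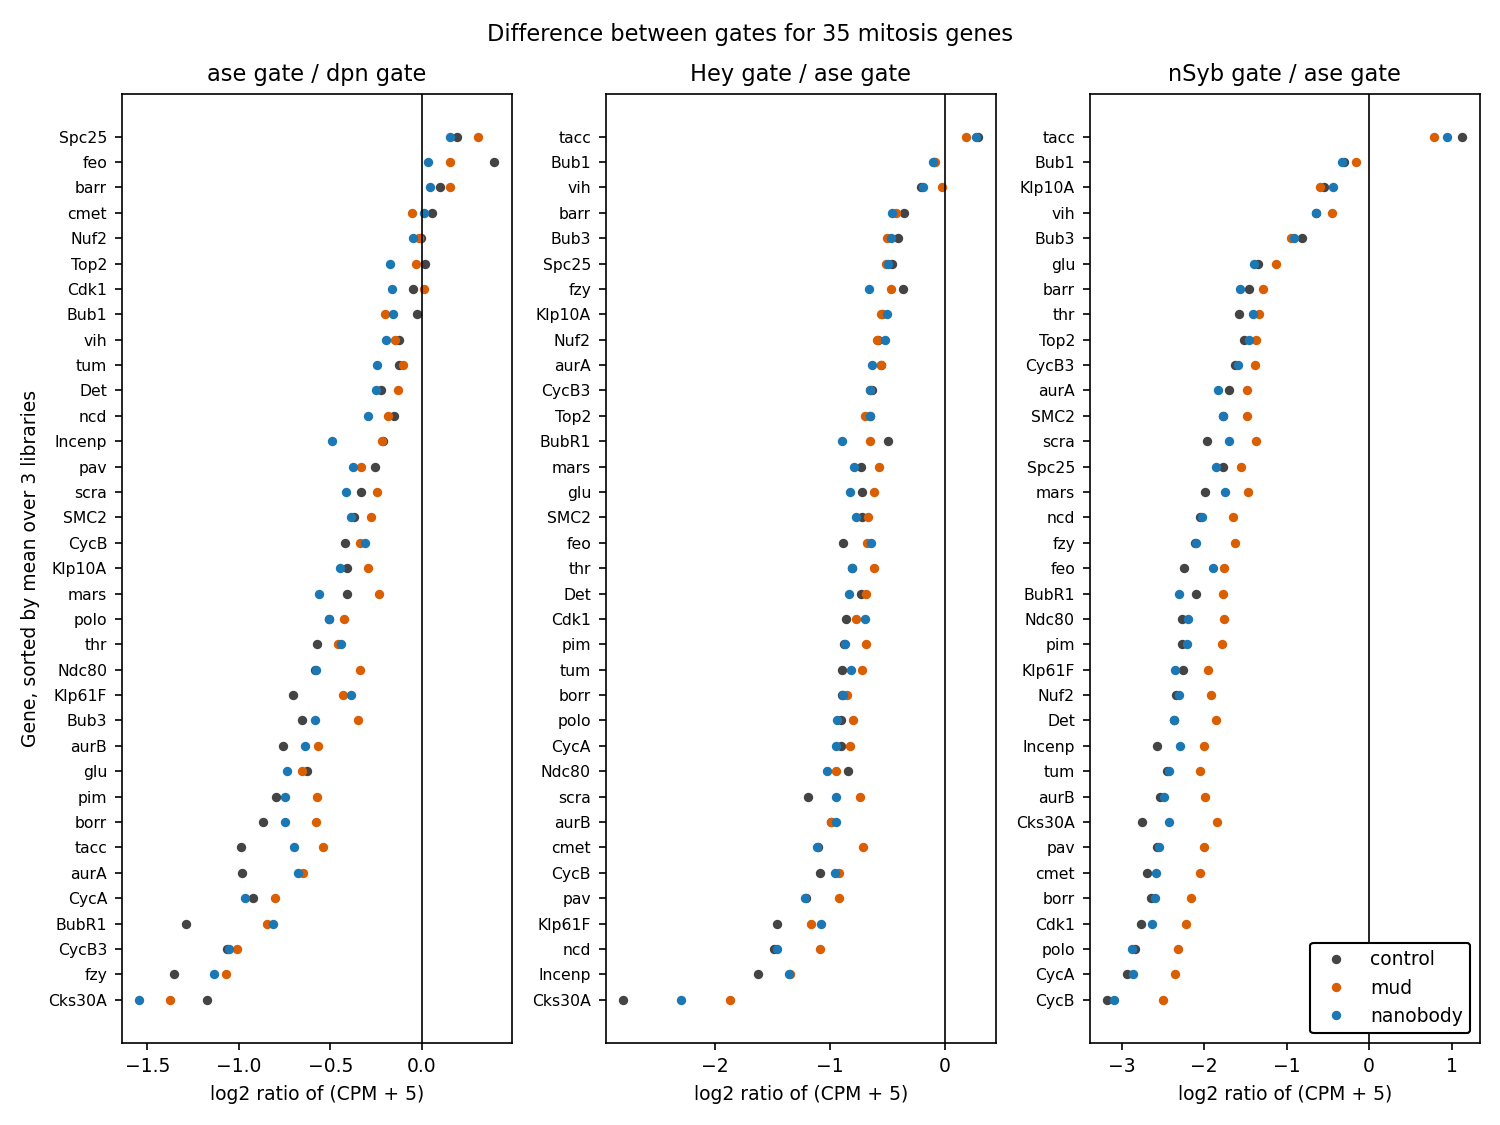
Log2 ratio of (CPM + 5) between gates (x axis) for each mitosis gene (y axis), with 1 point per library, in panels for ase over dpn, Hey over ase and nSyb over ase, genes sorted by their mean over 3 libraries. Cks30A lies lowest in the ase over dpn and Hey over ase panels, and in the nSyb over ase panel CycB lies lowest and tacc highest.

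In glial cells of the repo gate, 32 of 33 mitosis genes tested were at least 1.5-fold lower than in the dpn gate in each library, beside 23.5%, 30.8% and 33.6% of all genes tested in control, mud and nanobody. These repo gates hold 59 to 107 cells and sums are small. Between the repo gates of mud and control 22 of the 35 passed the filter, and of nanobody and control 20. Some of those counted therefore passed only through the dpn gate, where they are high. Without the filter, the median log2 difference over all 35 was -1.48, -1.46 and -1.54. CycB3, the cyclin of late mitosis, had the lowest ratio, with a mean log2 difference of -2.66 ± 0.21, and none was 1.5-fold higher, beside 19.7%, 20.4% and 22.5% of all genes.

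Between mud and control, feo was the mitosis gene with the largest difference in the dpn and ase gates. The summed share in mud was lower than in control in those gates, close to it in the Hey gate and higher in the nSyb gate. The nSyb-gate difference was smaller among cells of that gate alone. In the dpn gate the summed share in the library labelled mud was 0.895 times that of control (0.885 to 0.905) and in nanobody 0.995 times (0.983 to 1.01). Ase-gate ratios were 0.944 (0.937 to 0.95) and 0.965 (0.959 to 0.972), and in the Hey gate 1.01 and 0.990. In the nSyb gate the mud share was 1.14 times that of control (1.12 to 1.15) and the nanobody share 1.01 times. Among cells that passed the nSyb gate and no other, the share was 0.1245% in control, 0.1287% in mud and 0.1254% in nanobody. Both comparisons use the same control library. Averaged per cell, which gives large and small cells equal weight, the dpn-gate ratio for mud was 0.958 and for nanobody 1.04. Among cells of exactly 1 gate it was 0.932 for mud, and with cells thinned to 1000 UMIs and gated at 1 UMI the ase-gate ratio for mud became 1.02.

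A single mitosis gene passed 1.5-fold between genotypes in the dpn gate: feo, the central spindle cross-linker, was higher in mud. It stood at 216 CPM in control, 362 in mud and 267 in nanobody, so mud was 1.68 times control (1.58 to 1.78, log2 difference 0.73) and nanobody 1.24 times (1.16 to 1.32). This is 1 of 33 mitosis genes tested, where 6.21% of all genes tested were higher in mud by 1.5-fold, so the count is not above the background. None of 33 was lower in mud, with 1.35% of all genes lower, and none was past 1.5-fold in nanobody, with 0.929% of all genes higher and 0.275% lower.

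The higher feo level in mud was seen in the other gates as well. The ase-gate values of 285, 403 and 274 CPM made mud 1.41 times control (1.38 to 1.45), short of 1.5-fold. In the Hey gate they were 153, 251 and 174 CPM, in the nSyb gate 56.4, 115 and 69.9 CPM and in the repo gate 75.2, 128 and 99.0 CPM, with mud highest each time. These made feo the 1 mitosis gene 1.5-fold higher in mud of 22 tested in the Hey gate, 10 in the nSyb gate and 22 in the repo gate, beside 6.07%, 4.98% and 9.61% of all genes tested. None was lower in mud in the Hey and nSyb gates, beside 1.47% and 0.622% of all genes. In nanobody none of 22 was past 1.5-fold in the Hey gate, beside 0.768% of all genes higher and 0.512% lower, and none of 8 in the nSyb gate, beside 0.495% and 0.955%. In low barcodes feo stood at 145, 149 and 138 CPM, nearly level across the libraries. At 1000 UMIs per dpn-gate cell, 20.4%, 28.2% and 25.1% of cells held a feo UMI, against 4.78%, 9.98% and 6.77% of nSyb-gate cells, at median depths before thinning of 12024, 9885.5 and 9196 UMIs in the dpn gate. Without thinning the shares were 78.8%, 82.4% and 81.5% in the dpn gate and 27.6%, 41.7% and 34.6% in the nSyb gate.

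The gene feo lies on the X chromosome at 10852446 to 10854869 of the reference annotation, on the minus strand, with no exon shared with another gene. Of the other X-linked mitosis genes, Klp10A was 1.22 times control in the dpn gate of mud (1.14 to 1.31) and 1.33 times in the ase gate (1.28 to 1.38). Ndc80 was 0.787 times control in the dpn gate of mud (0.706 to 0.877). Over all X-linked genes 9.47% were 1.5-fold higher in the dpn gate of mud, beside 5.57% of autosomal genes. The mud4 allele is on X in this genotype, and linkage to feo was not tested.

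In the ase gate no mitosis gene of the 32 tested passed 1.5-fold in either direction, with 5.57% of all genes higher and 1.69% lower in mud and 1.07% higher and 0.478% lower in nanobody. The differences were mostly on the low side in the dpn gate of mud: 27 of 33 were below control, and the median log2 difference was -0.24, beside -0.06 over all genes tested, of which 58.0% were below. In the dpn gate of nanobody the median was -0.02 beside 0.02. For the ase gate it was -0.09 beside -0.09 in mud, and -0.06 beside -0.01 in nanobody.

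Among the genes on the low side in mud, SMC2 stood at 276 CPM in the dpn gate of control, 196 in mud and 260 in nanobody, so mud was 0.711 times control (0.669 to 0.756). Cdk1 stood at 352, 260 and 311 CPM there, with mud 0.739 times (0.701 to 0.779) and nanobody 0.886 times control (0.840 to 0.934). Low barcodes gave Cdk1 210, 122 and 163 CPM, with the same order of libraries. In the small repo gate Cdk1 was the 1 gene of 22 that was 1.5-fold lower in mud, at 154 CPM in control and 95.4 in mud (0.619 times, 0.486 to 0.787), beside 11.2% of all genes tested. In the repo gate of nanobody CycA, vih and glu of 20 tested were 1.5-fold lower than in control, at 0.569, 0.629 and 0.532 times, and CycB was higher at 1.74 times, beside 12% and 10.6% of all genes tested. The sums behind these repo-gate values of nanobody were 38 to 69 UMIs. SMC2 and Cdk1 are named for the size of their difference after their values were seen.

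**Figure D4:**
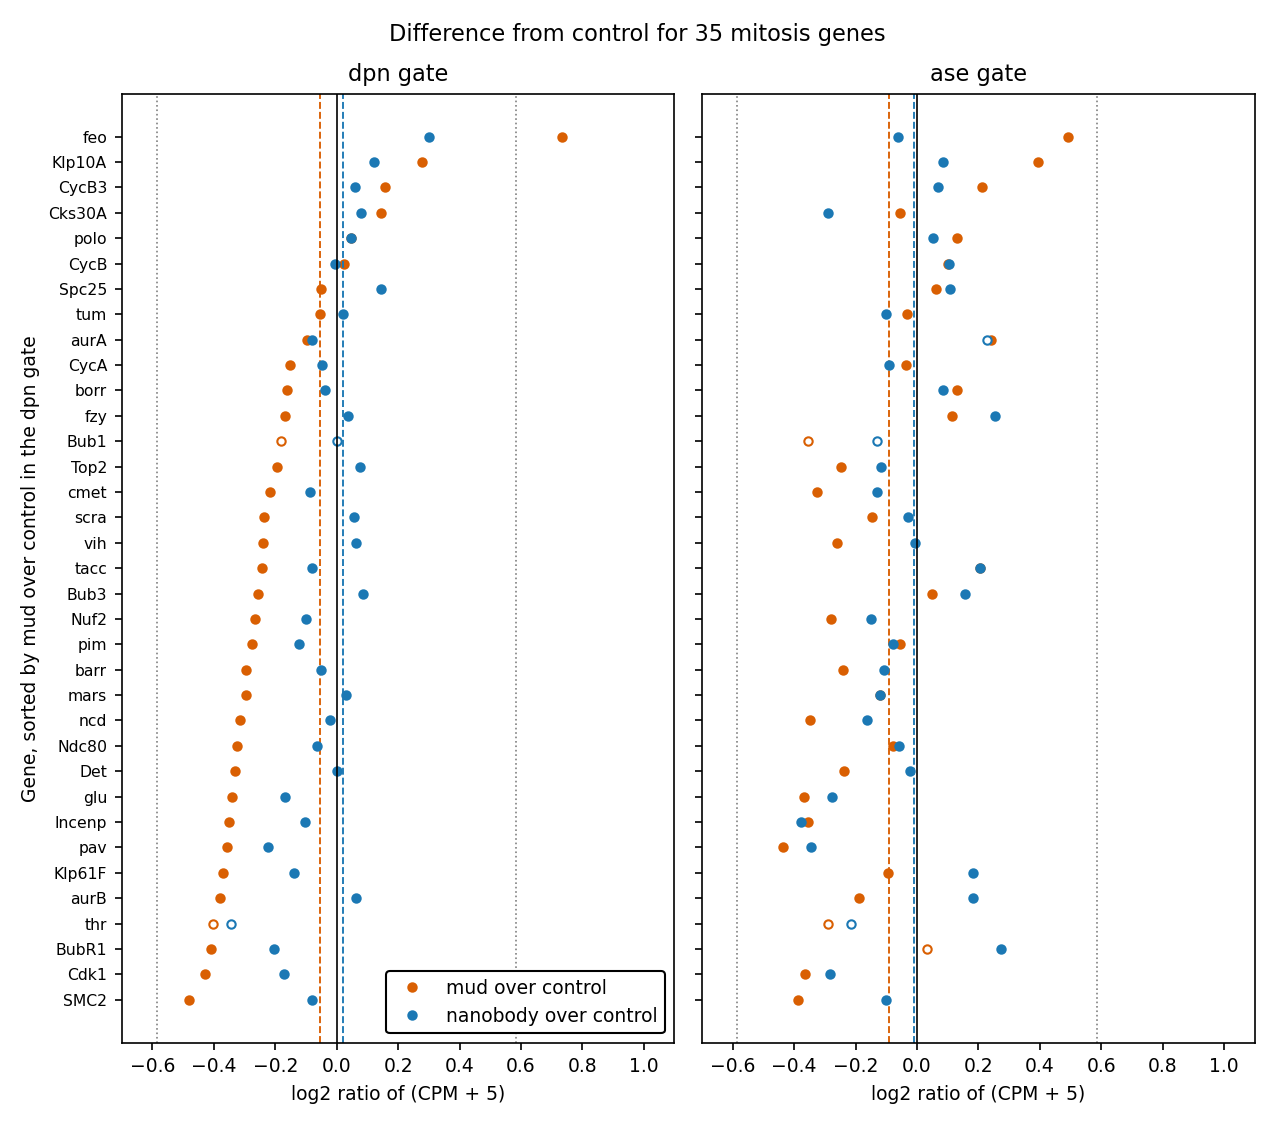
Log2 ratio of (CPM + 5) to control (x axis) for each mitosis gene (y axis) in the dpn and ase gates, for the mud and nanobody libraries, with open points for genes under 50 CPM, dotted lines at 1.5-fold and dashed lines at the median of all genes tested. In the dpn gate feo in mud lies past the upper dotted line at 0.73, and every other point lies between the dotted lines.

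In the wider cell cycle lists the genes past 1.5-fold in the dpn and ase gates were all higher in mud. In the ase gate they were 2 of 10 cytokinesis, 2 of 5 DNA replication, 1 of 6 G2/M and 1 of 8 transcription genes tested, and in the dpn gate 1 of 10 cytokinesis and 1 of 8 transcription genes. Of all genes tested, 5.57% and 6.21% were higher in mud in the ase and dpn gates. Among the cytokinesis genes outside the 35, pbl, which encodes the exchange factor that starts the contractile ring, stood at 234, 405 and 314 CPM in the dpn gate of control, mud and nanobody and at 244, 436 and 272 CPM in the ase gate. Also in the ase gate, dia, a formin of the ring, stood at 38.0 CPM in control and 62.8 in mud. The mitotic phosphatase stg, which activates Cdk1, stood at 361, 580 and 456 CPM in the ase gate and at 589, 714 and 540 CPM in the dpn gate. CycE stood at 50.3, 88.2 and 58.6 CPM in the ase gate, and Mcm7, a helicase subunit, at 33.9 CPM in control and 60.2 in mud. Both dia and Mcm7 passed the 50 CPM filter only through mud, the library where they are high, so the filter favours their count as higher. The E2F partner Dp stood at 290, 497 and 349 CPM in the dpn gate and 235, 374 and 293 CPM in the ase gate. None of the checkpoint and kinetochore, APC/C, spindle, or condensin and cohesin genes outside the 35 passed 1.5-fold in the dpn or ase gate of either library.

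Cell type markers within the gates also differed between libraries, but not all in the same direction. The neuroblast transcript mira stood in the ase gate at 101 CPM in control, 171 in mud and 105 in nanobody, while the other neuroblast markers did not rank alike: wor stood at 290, 212 and 226 CPM, and all 6 summed to 1018, 1014 and 953 CPM. The newborn neuron markers (Hey, nerfin-1, insb) summed to 2964, 1972 and 2121 CPM. Ganglion mother cell markers (ase, tap, dap, CycE) summed to 1886, 1451 and 1749 CPM in the ase gate. Within the dpn gate nSyb stood at 33.8, 81.6 and 39.6 CPM, and Syt1, brp, para and cpx were also highest in mud. The neuronal marker elav, the most abundant of the list, was lowest there at 820, 609 and 898 CPM, so that the 6 neuron markers summed to 966, 922 and 1105 CPM. The gate gene dpn itself stood at 23.3, 61.3 and 41.3 CPM in low barcodes, highest in mud, and at 297, 247 and 273 CPM in the dpn gate, a level that the gate itself sets. In ase-gate cells without a mira UMI the mitosis share in mud was 0.875 times control and in nanobody 0.924 times. The part of gate make-up in the genotype differences was not tested.

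How far the mitosis genes varied together within a gate is given as a description. Each gene was set against the summed share of the other 34 in ase-gate cells, which were split at its quartiles. Across the 3938 control cells, Pearson correlations of single genes with the rest ranged from 0.05 for tacc and 0.07 for Bub1 to 0.40 for ncd. In mud they ranged from 0.03 for tacc to 0.37, and in nanobody from -0.02 for tacc to 0.44 for CycB. These points share a library, depth and capture, and sparse counts lower such values.

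By the mean log2 difference over the 3 libraries, the genes with the steepest difference between top and bottom quartile cells of the ase gate were Cks30A, ncd, Klp61F, pav and cmet. The place of Cks30A rests on nanobody: its log2 differences were 1.677, 2.11 and 3.32. In control the other 4 genes, with 1.95 to 2.25, were steeper. So were aurA and scra, both with 1.82, CycB (1.78), Incenp (1.75), aurB (1.70) and polo (1.682). Cks30A stood at 101, 122 and 123 CPM in the top quartile of control, mud and nanobody and at 28.1, 24.6 and 7.86 CPM in the bottom quartile. Top-quartile cells held 305, 242 and 273 CPM of ncd, a ratio of 5.09, 4.22 and 5.42 to bottom-quartile cells. For Klp61F the values were 111, 112 and 127 CPM against 19.4, 20.1 and 29.2 CPM. The flattest were tacc, Bub1, vih, barr and Spc25: tacc stood at 135, 147 and 151 CPM in the top quartile and 133, 159 and 170 CPM in the bottom quartile. In the dpn gate the steepest were CycB3, aurA, Klp61F, fzy and BubR1, and CycB3 stood at 382, 487 and 433 CPM in top-quartile and 101, 141 and 135 CPM in bottom-quartile cells.

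**Figure D5:**
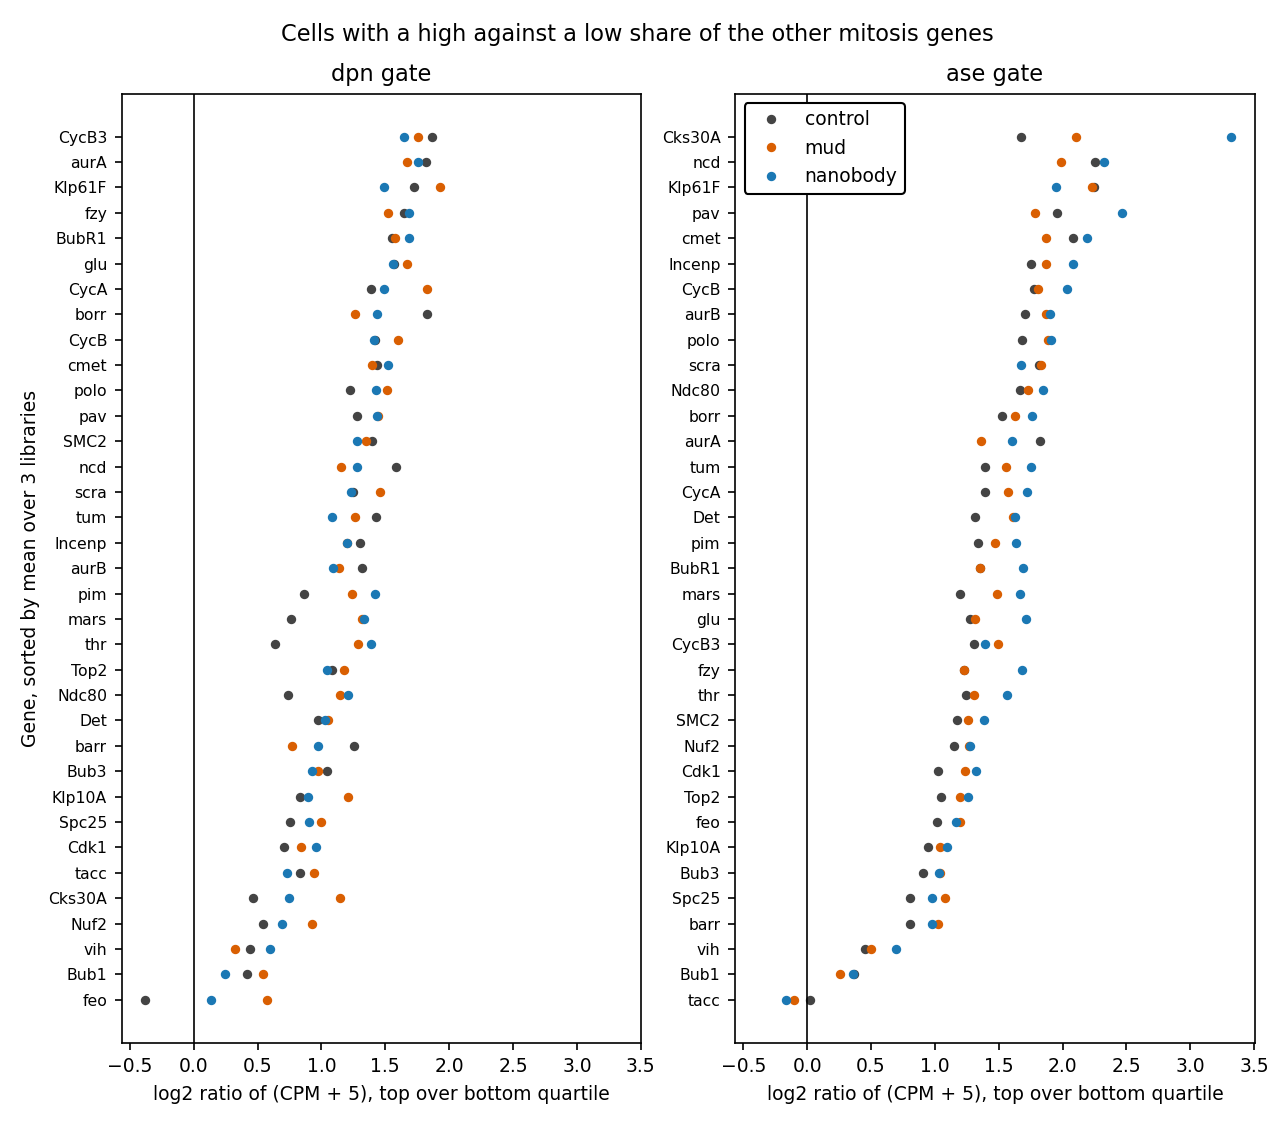
Log2 ratio of (CPM + 5) in top-quartile over bottom-quartile cells (x axis) for each mitosis gene (y axis), with cells ranked by the summed share of the other 34 genes, in the dpn and ase gates, with 1 point per library. In the ase gate Cks30A, ncd and Klp61F have the highest means and tacc lies lowest, with points on both sides of 0.

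Top-quartile and bottom-quartile cells of the ase gate also differed in other transcripts. In control, mira stood at 120 CPM in the top and 32.2 in the bottom quartile, and Hey at 11.2 and 313 CPM. The other newborn neuron marker examined, nerfin-1, went the other way, at 1690 CPM in the top and 1222 in the bottom quartile of control, 1242 and 1079 in mud and 1309 and 1081 in nanobody. The neuronal nSyb transcript stood at 2.62 CPM in the top and 109 CPM in the bottom quartile. The 16 DNA replication genes summed to 1112 CPM in the top and 284 CPM in the bottom quartile of control, 1443 and 296 CPM in mud and 1327 and 252 CPM in nanobody. The mCherry transcript stood at 347 CPM in the top and 81.7 CPM in the bottom quartile of control. Median depths there, taken from the split on the share without Ndc80, were 8696 and 6270.5 UMIs. In mud stg stood at 958 CPM in the top and 511 CPM in the bottom quartile, against 521 and 425 CPM in control.

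Outside the list, 5535 genes were detected in at least 5% of ase-gate cells of every library, and those whose level per cell most resembled the mitosis share were Pen, an importin, at a mean Pearson correlation of 0.55 over the 3 libraries, pbl (0.51), the Notch regulator spdo (0.48), the G protein subunit gene Galphai (0.48) and CNBP (0.47). HmgD, mud, baf, Cam and CG1910 followed at 0.42 to 0.46. Of the 20 highest genes in each library, 12 were the same in all 3. Pen stood at 424, 667 and 465 CPM in the ase gate of control, mud and nanobody, with the highest value in mud, as for pbl, Galphai and the mud transcript. For spdo (254, 173 and 198 CPM), CNBP, HmgD and CG1910 the value in the mud library was the lowest. For baf and Cam the control value was the highest.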

How the data were processed

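The deposited matrices hold raw counts of UMIs per gene and barcode, made with Cell Ranger 9.0.1 per the file headers. The submitters' processing notes also name Seurat. The genome build used for counting is not given in the sources used here. Features were matched by FlyBase ID to the Ensembl release 115 annotation of BDGP6.54, which placed all 35 members; coordinates are from it, and exons of 12 members overlap a gene on the opposite strand. The members and lists were chosen with earlier results of these data known. Counts were summed per library and gate, scaled to CPM over all UMIs of the gate, and compared as log2 of (CPM + 5) among genes with at least 50 CPM in 1 of the groups compared. There is 1 library per genotype, so no test was made; intervals are exact 95% Poisson (levels), Clopper-Pearson (shares) or conditional binomial (ratios) intervals and cover counting error only. The scripts were tested on simulated data. Text names, per role, the members with the most UMIs in the ase gate, every member past 1.5-fold between genotypes in the dpn or ase gate, the 5 highest and 5 lowest ratios between gates, and up to 4 genes per list. Cells sharing 2 gates were kept in both. Scrublet (scanpy 1.11.5) marked 882, 923 and 831 cells as doublets in control, mud and nanobody, which were kept and left out as an alternative. Of the alternatives, 58 result and choice pairs were planned and 10 were added after seeing the data (cells with an mCherry UMI, ase-gate cells with no mira UMI). Scaling factors came from edgeR 4.0.16, and other values from Python 3.11.15, numpy 2.4.6, scipy 1.17.1 and pandas 2.3.3.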

Additional observations from a re-analysis of the deposited data

How the results depend on the processing

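No paired analysis was possible because each genotype is 1 library. Values stand in the order of the libraries named. The mud share ratio in the dpn gate (0.895) was 0.915 without Scrublet doublets, 0.932 among cells of exactly 1 gate, 0.945 with cells thinned to 1000 UMIs and gated at 1 UMI, 0.910 among cells with an mCherry UMI and 0.958 as the mean per cell. The nanobody ratio there (0.995) was 1.01, 1.02, 1.03, 0.979 and 1.04 in the same order. In the ase gate the mud ratio (0.944) was 0.961 without doublets, 0.964 for exactly 1 gate, 0.972 with mCherry, 0.875 without mira UMIs, 0.978 per cell and 0.955 without Top2; thinning reversed it to 1.02, and the cause was not tested. The nanobody ratio there (0.965) was 0.973 for exactly 1 gate, 0.999 thinned, 0.997 with mCherry and 0.924 without mira. The ase over dpn ratio for control, mud and nanobody was 0.658, 0.710 and 0.640 thinned, 0.730, 0.768 and 0.706 with stricter gates, 0.801, 0.855 and 0.816 with mCherry, 0.704, 0.687 and 0.654 without mira and 0.718, 0.765 and 0.704 without Top2; control was 0.757 for exactly 1 gate, nanobody 0.712 without doublets, and mud and nanobody 0.751 and 0.689 per cell. The nSyb over ase ratio was 0.250, 0.302 and 0.266 without doublets, 0.218, 0.234 and 0.226 for exactly 1 gate, 0.247, 0.285 and 0.254 with stricter gates, 0.240, 0.260 and 0.255 thinned, 0.613, 0.739 and 0.651 with mCherry, 0.304, 0.395 and 0.331 without mira, 0.277, 0.320 and 0.294 per cell and 0.283, 0.345 and 0.295 without Top2. All of these gate ratios were below 1. In the dpn gate thinning gave 4 genes higher and 4 lower in mud (higher aurA, Klp10A, tacc and feo; lower Cdk1, Det, Ndc80 and ncd) and 2 and 2 in nanobody; at 2-fold the count higher in mud was 0. The other settings gave feo alone, and its ratio ranged from 1.56 to 1.93. TMM and median-of-ratios scaling shifted log2 values by -0.08 at the most and changed no count. No setting gave a call in the ase gate. Over all alternatives of the main comparisons, 145 values stayed within the counting interval or within 1.5 times a count, 68 lay outside and 1 was reversed. Depth limits members under 50 CPM: Bub1 and thr failed the filter in the dpn gate.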

Other observations

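The wider cell cycle lists gave further levels in the ase gate, in CPM for control, mud and nanobody. Among G2/M regulators, the catalytic subunit of the mitotic phosphatase PP2A, mts, stood at 1157, 799 and 915 CPM, its regulatory subunit tws at 272, 342 and 252 CPM and the PP2A inhibitor endos at 382, 494 and 398 CPM. Of the 6 genes of that list that passed the level filter, 2 were at least 1.5-fold lower in the nSyb gate than in the ase gate in each library, where 25.1%, 19.4% and 23.8% of all genes tested were. Among checkpoint and kinetochore genes outside the 35, Spc105R, the platform of the outer kinetochore, stood at 189, 145 and 161 CPM, mad2, a checkpoint protein, at 132, 113 and 115 CPM, the centromere protein gene Cenp-C at 130, 110 and 108 CPM and Spindly, which recruits dynein, at 125, 87.7 and 105 CPM. Of the 7 tested, 6 were at least 1.5-fold lower in the nSyb gate in each library, beside the same shares of all genes. The APC/C subunit Cdc27 stood at 93.4, 94.8 and 99.0 CPM in the ase gate and at 66.5, 73.7 and 77.0 CPM in the nSyb gate, and only 1, 2 and 2 of the 11 APC/C genes passed the level filter, of which none was 1.5-fold lower there.

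Among the other spindle genes the microtubule end-binding protein gene Eb1 stood at 339, 343 and 365 CPM in the ase gate and 219, 231 and 243 CPM in the nSyb gate, and the centrosome gene cnn at 248, 206 and 245 CPM and 72.6, 82.4 and 79.4 CPM. The cytokinesis gene Pp1-87B, a phosphatase, stood at 1351, 1079 and 1219 CPM in the ase gate. The cohesin loader Nipped-B stood higher in the ase gate, at 841, 625 and 749 CPM, than in the dpn gate, at 588, 464 and 527 CPM. The condensin and cohesin list as a whole had median log2 differences of 0.30, 0.21 and 0.11 from dpn to ase gate, with 1 gene of 13, 12 and 13 tested at least 1.5-fold lower, beside 15.3%, 14.5% and 12.4% of all genes tested.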
